A study of Mus musculus with 29 samples.

Results

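The 7 genes Clec4f, Timd4, Vsig4, Marco, Folr2, Cd5l and Cdh5 were taken, by symbol, from the 23930 genes of the expression table, because their products mark Kupffer cells (KCs), the resident macrophages of the liver sinusoids. All 7 were listed, and they were followed over 29 RNA-seq libraries in 9 groups of sorted cells. Wild-type mice gave 4 libraries of KCs, sorted as F4/80+ CD11b int Tim4+ cells low for PDCA-1, and, from liver and spleen alike, 3 libraries for each subset of macrophages, Ly6C hi and Ly6C low. Rnaset2-/- mice lack both genes for RNase T2, a lysosomal RNase, and gave 3 libraries each of hepatic Ly6C hi, hepatic Ly6C low and splenic Ly6C hi macrophages and 4 libraries of splenic Ly6C low macrophages. Both Ly6C subsets were CD11b+ and negative for Ly6G, SiglecF and NK1.1, and Ly6C low cells were also gated on Fcgr4, an IgG receptor. The mice received no treatment, and RNA was taken directly after the sort. Livers were dissociated with a heated dissociator, whereas spleens were minced. KCs from Rnaset2-/- mice were not analysed here. The labels do not say whether the replicates of a group came from separate animals, so p-values measure only the spread between these samples, which may be technical. Because Tim4, the product of Timd4, was part of the KC gate, Timd4 was left out of every count that sets KCs against other cells.

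KCs take up particles, dying cells and microbes from portal blood, and the genes followed here belong to that work. Clec4f encodes a C-type lectin that binds galactose-bearing glycans and is largely restricted to KCs in mice. Timd4 encodes a receptor for phosphatidylserine on dying cells. Vsig4 encodes a receptor for complement C3 fragments, and Marco a scavenger receptor for bacteria and particles. Folr2 encodes folate receptor beta. Cd5l encodes AIM, a member of the scavenger receptor cysteine-rich family that is secreted rather than held on the surface. Cdh5 encodes VE-cadherin, an adhesion molecule of endothelial junctions that KCs also transcribe. Monocytes that settle in the liver are known to gain such genes at different times, with Timd4 among the late ones.

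All 7 are protein-coding genes at single loci of GRCm38 (GENCODE vM21). Clec4f lies at chr6:83644542-83656187 on the minus strand, Timd4 at chr11:46810800-46844332 on the plus strand, Vsig4 at chrX:96247203-96293438 on the minus strand and Marco at chr1:120474538-120505024 on the minus strand. Folr2 lies at chr7:101839988-101857194 on the minus strand, Cd5l at chr3:87357881-87371073 on the plus strand and Cdh5 at chr8:104101625-104144511 on the plus strand. RefSeq start-site windows (GRCm38.p6, 250 bases before to 50 after a start) were held for 6 of the 7 genes, with 2 windows for Folr2. They were searched on both strands for 12 short motifs of factors active in macrophages and of basal promoters. The letters TGCTGA, the start of the element bound by MAF-family factors, occurred in 6 of the 7 windows and in 5 of the 6 genes, Marco being the exception, against 19.5% of all 32851 windows. AGGTCA, the nuclear receptor half-site, occurred in the windows of Clec4f and Timd4 (16.3% of all windows). Its direct repeat with a 4-base spacer (DR4), which contains it, occurred in none (0.0152% of all), nor did a related repeat with a shortened second site (0.0213%). GAGGAA, part of PU.1 sites, occurred in Cd5l, Marco and Vsig4 (28.3%), and its longer form GAGGAAGT in none (3.2%). TGGGAA occurred in Clec4f and Marco (25.6%), TGACTCA in Folr2 (5.2%), and CATGTG in Folr2, Marco and Timd4 (14.2%). CCAAT occurred in Clec4f and Timd4 (37.4%), whereas CACGTG (7.15%) and TATAAA (13.6%) occurred in none. A match is a description of these letters only. The 250 bases before the start are shown for Clec4f, Timd4 and Cd5l, because these genes had the lowest, an intermediate and the highest percentage of the KC mean in Rnaset2-/- Ly6C low macrophages of the liver. Capitals mark TGCTGA or its reverse complement TCAGCA.
Clec4f (chr6:83656117-83656366, - strand): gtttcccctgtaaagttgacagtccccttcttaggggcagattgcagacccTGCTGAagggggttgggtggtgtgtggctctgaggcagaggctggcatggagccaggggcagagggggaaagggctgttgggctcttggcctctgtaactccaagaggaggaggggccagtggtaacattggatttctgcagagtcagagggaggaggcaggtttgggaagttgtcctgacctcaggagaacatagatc
Timd4 (chr11:46810549-46810798, + strand): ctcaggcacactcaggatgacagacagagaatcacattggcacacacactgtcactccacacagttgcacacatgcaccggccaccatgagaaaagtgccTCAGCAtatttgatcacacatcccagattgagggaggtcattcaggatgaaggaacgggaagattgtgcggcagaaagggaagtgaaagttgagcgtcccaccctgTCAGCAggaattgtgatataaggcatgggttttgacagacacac
Cd5l (chr3:87357631-87357880, + strand): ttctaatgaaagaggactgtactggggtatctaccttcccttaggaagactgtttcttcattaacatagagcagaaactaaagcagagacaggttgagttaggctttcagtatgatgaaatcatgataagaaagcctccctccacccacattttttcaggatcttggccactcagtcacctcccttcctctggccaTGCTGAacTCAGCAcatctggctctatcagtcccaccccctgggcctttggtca

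The unit of the table is RPM, the reads of a gene scaled to a fixed library total, which was converted back to whole reads. The libraries held 11175843 to 21167602 reads (median 13027220), so that 3 reads, taken as the smallest detectable level, corresponded to 0.142 to 0.268 RPM. Such floors cover counting error only. In hepatic Rnaset2-/- libraries Xist did not exceed 0.154 RPM, and 4 Y-linked genes summed to 150.1 to 291.2 RPM, whereas the hepatic wild-type libraries, KCs included, held at least 321.5 RPM of Xist and at most 52.0 RPM of the Y-linked genes. Genotype and sex of the mice therefore cannot be told apart in the liver, nor can sex and cell type between KCs and Rnaset2-/- cells. In the spleen, replicate 2 of the Rnaset2-/- Ly6C low group held 301 RPM of the Y-linked genes and the other splenic libraries at most 0.14 RPM. Replicates 2 and 3 of both hepatic wild-type Ly6C groups held Xist together with 28.95 to 52.03 RPM of the Y-linked genes. Whether these libraries mix cells of both sexes was not tested. Groups were compared with limma (two-sided) on log2(value + 1), the value being RPM scaled by relative log expression factors. A gene entered a comparison when 3 or more of its libraries reached 1 RPM. A gene was called when it differed by >1.5-fold with a Benjamini-Hochberg adjusted p below 0.05 over all genes tested. Log2 fold changes are on this log2(value + 1) scale, which understates the change of low genes. A gene that passed the filter only through the group where it was high had to differ, and such genes, where counted, are named beside each comparison. Comparisons that use the same libraries are not independent of each other. Overlap between groups was judged on RPM as deposited, and the share of all genes without overlap was not counted.

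In wild-type KCs all 7 genes were abundant, and 6 of them had their highest group mean there. Clec4f was at 4822.5, 4819, 1674 and 5470.5 RPM in the 4 KC libraries, and Vsig4 at 2313, 2156, 1239 and 3165 RPM. Folr2 was at 1173, 1475, 536 and 1195 RPM, and Marco at 295, 369, 124 and 291 RPM. Replicate 3 was the lowest of the 4 KC libraries in all 7 genes. Cd5l was at 7317, 8187, 2098 and 7779 RPM, Timd4 at 415, 448, 166 and 431 RPM, and Cdh5 at 870, 1071, 733 and 759 RPM. Together the 7 genes took 1.72, 1.85, 0.657 and 1.91% of the reads of these libraries. The same replicate 3 held 5022 RPM of 9 hepatocyte markers against 1499 to 1676 RPM in the other 3, 9739 RPM of 18 endothelial markers against 3961 to 5808 RPM, and 835 RPM of 5 B cell markers against 440 to 637 RPM. Alb, the main plasma protein of hepatocytes, led the first list at a mean of 1618 RPM. The part of these markers in the lower values of replicate 3 was not tested. In bulk samples such as these, fewer cells of a type and less RNA per cell cannot be told apart.

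**Figure D1:**
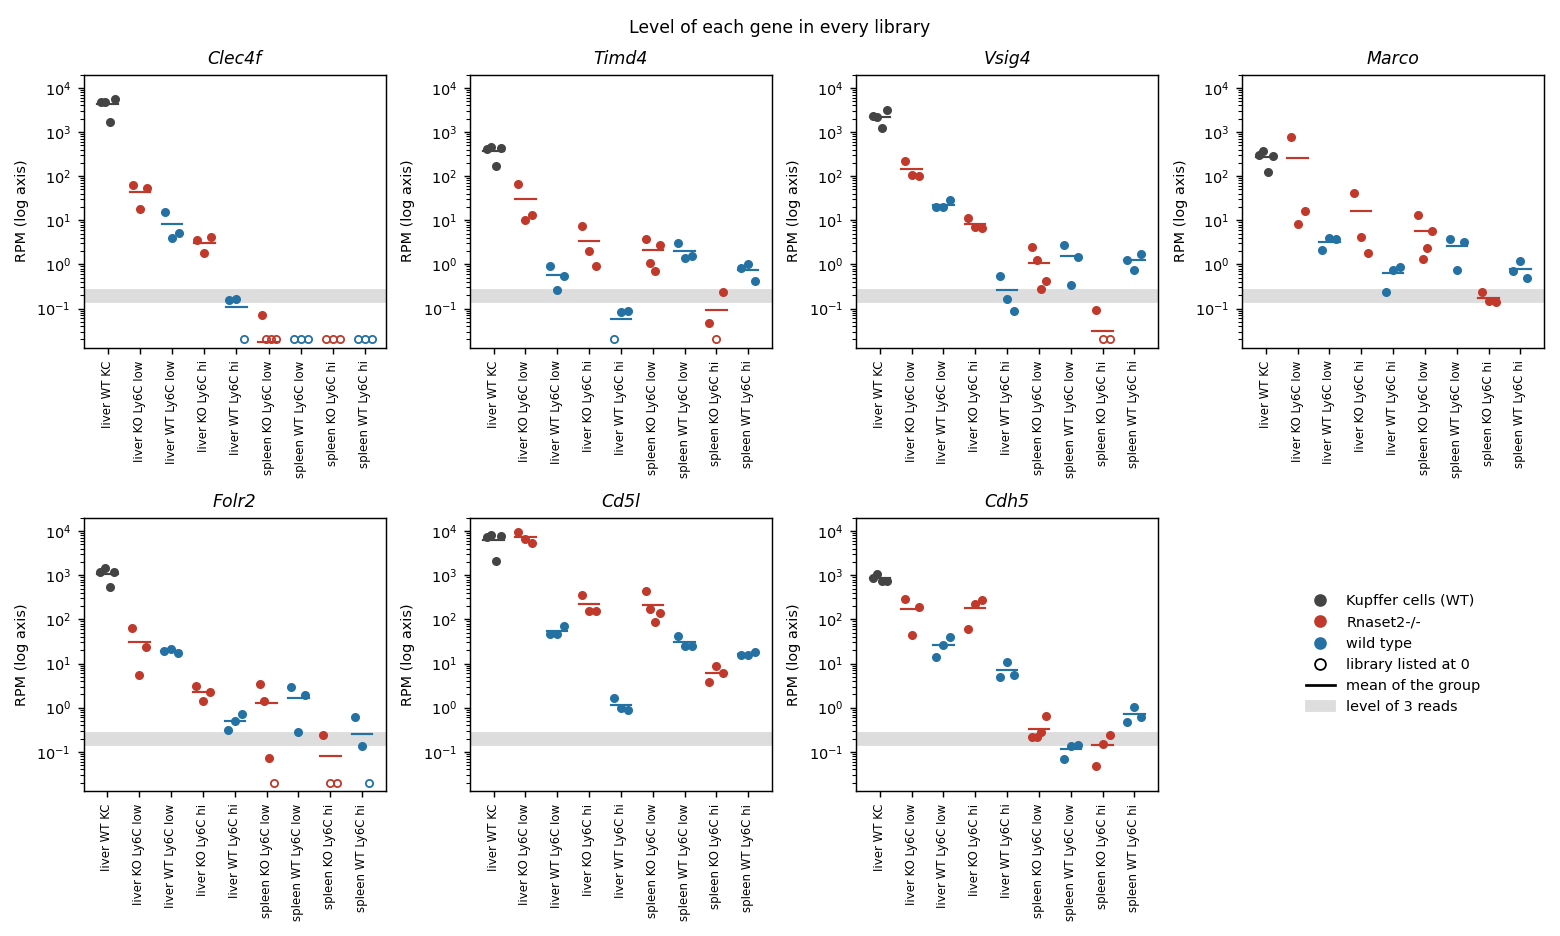
RPM of each of the 7 genes in 29 libraries on a log axis; each point is a library, open points are libraries listed at 0 (drawn at the bottom), lines are group means and the gray band is the level of 3 reads. Clec4f was at or under that level in every splenic library, whereas Cd5l reached 5478 to 9639 RPM in hepatic Rnaset2-/- Ly6C low libraries, the range that holds 3 of the 4 KC libraries.

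The order of the 9 groups differed between the genes. For Cd5l, Rnaset2-/- Ly6C low macrophages of the liver stood first and KCs second, with overlapping libraries, and 6 of the 8 neighboring pairs of groups in the order did not overlap. For Marco, none of the 8 neighboring pairs was free of overlap. For Clec4f, the order ran from KCs through hepatic Rnaset2-/- Ly6C low, hepatic wild-type Ly6C low, hepatic Rnaset2-/- Ly6C hi and hepatic wild-type Ly6C hi to the spleen. The wild-type Ly6C low and Rnaset2-/- Ly6C hi groups overlapped in this order, and the hepatic wild-type Ly6C hi group overlapped with the spleen. Vsig4 followed the same order down to the hepatic Rnaset2-/- Ly6C hi group, with no overlap between neighbors, and each of the 5 lowest groups overlapped with its neighbor. For Cdh5, the 2 hepatic Rnaset2-/- groups overlapped below KCs, and every hepatic group was above every splenic group. Of the 63 group means of the 7 genes, 24 were at or above 10 RPM.

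Against wild-type Ly6C low macrophages of the same organ, KCs had more of all 6 genes counted, among 26.0% of all 12515 genes called higher and 24.0% called lower. Vsig4, the complement receptor, was at 19.7, 19.96 and 28.1 RPM in the wild-type Ly6C low libraries, against 1239 RPM in the lowest of the KCs (log2 fold change 5.92, standard error 0.288, adjusted p = 1.79e-07). Clec4f was at 15.1, 4.01 and 5.19 RPM there, 8.37 below KCs in log2 units (adjusted p = 3.27e-07, standard error 0.453). The other 4 rose by 4.47 to 6.09 on the log2 scale, Cdh5 least and Cd5l most. KCs were also higher in 17 of 18 endothelial markers (median log2 fold change 3.67) and in 7 of 9 hepatocyte markers (median 3.47). The part of these markers in the differences was not tested. In all 7 genes, every KC library was above every wild-type Ly6C low library, though the share of all genes that did so was not counted. Without scaling factors, 5477 genes in all were higher and 1385 lower, against 3254 and 2999 with them.

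Against wild-type Ly6C hi macrophages the fitted difference was larger for each gene, although the 2 comparisons share the KC libraries. All 6 genes counted were higher in KCs, among 29.3% of 12531 genes called higher and 25.3% called lower, with log2 fold changes of 6.14 for Cdh5 to 11.4 for Clec4f. Clec4f, Vsig4, Marco and Folr2 were under 1 RPM in every wild-type Ly6C hi library. They passed the filter only through the KC libraries and had to differ. Clec4f was at 0.154, 0.167 and 0 RPM in these libraries, that is 2, 2 and 0 reads, all under the floor. Timd4, the gate gene, was likewise at or under 0.089 RPM. Cd5l was at 1.62, 1.001 and 0.895 RPM. Both wild-type Ly6C subsets of the liver also held far more RNA of the 13 immediate early genes (18630 to 26800 RPM) than KCs (1552 to 2861 RPM). All 18 endothelial markers (median log2 fold change 4.83) and all 9 hepatocyte markers (median 3.77) were higher in KCs. The part of the immediate early genes and of these markers in the differences was not tested. Unscaled, 6169 genes were higher and 1335 lower, against 3674 and 3171.

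Loss of RNase T2 was next examined in hepatic Ly6C low macrophages. Of the 7 genes, 5 rose in Rnaset2-/- mice and none fell, among 20.2% of 10808 genes called higher and 22.5% called lower. Cd5l, the gene of secreted AIM, was at 9639, 6753 and 5478 RPM in the Rnaset2-/- libraries and at 46.6, 47.0 and 70.7 RPM in the wild-type libraries. The genotypes were far apart, by 6.98 in log2 units (adjusted p = 2.43e-06, standard error 0.261). Timd4, the phosphatidylserine receptor, was at 66.8, 10.04 and 13.02 RPM against 0.911, 0.261 and 0.537 RPM (log2 fold change 3.80, standard error 0.621, adjusted p = 0.00187). Vsig4 was at 225.5, 108 and 102 RPM in Rnaset2-/- libraries, 2.51 higher on the log2 scale (standard error 0.316, adjusted p = 0.000523). These 3 genes did not overlap between genotypes, and the calls of Cd5l and Vsig4 held when any library was left out. Timd4, under 1 RPM in every wild-type library, passed the filter only through the Rnaset2-/- libraries and was not tested when any of them was left out. Clec4f, the KC lectin, was at 63.3, 17.7 and 53.1 RPM (log2 fold change 2.31, standard error 0.558, adjusted p = 0.0108). It missed the threshold without wild-type replicate 2 (adjusted p = 0.0505). Cdh5 was at 287, 44.4 and 189 RPM against 14.4, 26.7 and 38.9 RPM (log2 fold change 2.36, adjusted p = 0.0209), and it missed the threshold without wild-type replicate 1, wild-type replicate 2 or Rnaset2-/- replicate 3 (adjusted p = 0.0756, 0.0619 and 0.0597).

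The remaining 2 genes were not called in this comparison. Marco, the scavenger receptor, was at 758 RPM in Rnaset2-/- replicate 1 but at 8.33 and 16.3 RPM in replicates 2 and 3, against 2.07 to 3.92 RPM in the wild-type libraries. All 3 libraries were above the wild-type range, yet the spread left a log2 fold change of 3.55 with a standard error of 1.40 (adjusted p = 0.0705). Without replicate 1 the log2 fold change was 1.60 (adjusted p = 0.00827), and without replicate 2 it was 4.79 (adjusted p = 0.031). It was also called by edgeR on the recovered reads (adjusted p = 0.0217) and in a fit of all 29 libraries (adjusted p = 0.00573). Folr2, the folate receptor, was at 62.9, 5.53 and 23.1 RPM against 19.1, 21.004 and 17.4 RPM, so that the genotypes overlapped (log2 fold change 0.06, standard error 0.697, adjusted p = 0.952). Its fitted difference was 0.97 without Rnaset2-/- replicate 2 and -0.70 without replicate 1, neither called. Replicate 1 of the Rnaset2-/- Ly6C low group had the highest value of all 7 genes in that group.

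These Rnaset2-/- libraries stood apart from the wild-type libraries in several marker lists too. The 8 monocyte markers summed to 677 to 1148 RPM against 6058 to 7230 RPM, and the 13 immediate early genes to 867 to 1001 RPM against 18630 to 26800 RPM. Nr4a1 led the monocyte list in each of these groups, and it is itself an immediate early gene. The 5 B cell markers, led by Cd79b, summed to 104 to 372 RPM against 26.4 to 30.9 RPM, and the 6 erythroid markers to 54.7 to 148 RPM against 0.994 to 5.23 RPM. The 8 T cell markers summed to 39.6 to 132 RPM against 15.2 to 33.7 RPM, and 6 genes of spleen-resident macrophages to 816 to 1492 RPM against 93.0 to 114 RPM. Of those 6 genes, 3 rose and 2 fell, beside 20.2% and 22.5% of all genes, Cd163 being among those that fell. Adamdec1 led their sum in the Rnaset2-/- group at a mean of 733 RPM. The part of these lists in the changes of the 7 genes was not tested.

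Set against KCs, the Rnaset2-/- Ly6C low macrophages reached a different share of the KC level in each gene. Cd5l was at 152, 106 and 86.3% of the KC mean, and Marco at 281, 3.09 and 6.04%. Cdh5 was at 33.4, 5.17 and 22.1% and Timd4 at 18.3, 2.75 and 3.57%. The gate gene and VE-cadherin thus lay between the extremes. Vsig4 was at 10.2, 4.86 and 4.61%, Folr2 at 5.74, 0.505 and 2.11%, and Clec4f at 1.51, 0.423 and 1.26%. In wild-type Ly6C low macrophages the group means were 0.156% (Timd4) to 3.11% (Cdh5) of the KC mean. Of the 6 genes counted, KCs were higher in 4, among 26.3% of 12127 genes called higher and 19.4% called lower. These were Clec4f (log2 fold change 6.05, standard error 0.526, adjusted p = 6.1e-05), Folr2 (5.06, adjusted p = 0.000438), Vsig4 (3.42, adjusted p = 0.000168) and Cdh5 (2.12, adjusted p = 0.0106). Cd5l was not called, at -0.87 for KCs over Rnaset2-/- cells (standard error 0.524, adjusted p = 0.195), and its libraries overlapped. Marco was not called either, at 1.83 (standard error 1.25, adjusted p = 0.251). Without Rnaset2-/- replicate 1, Marco was higher in KCs by 3.77 (adjusted p = 0.000286) and its mean fell to 4.57% of the KC mean. Without both that library and KC replicate 3, Cd5l stood at 78.8% of the KC mean. Unscaled, 5156 genes were higher in KCs and 977 lower, against 3184 and 2351.

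**Figure D2:**
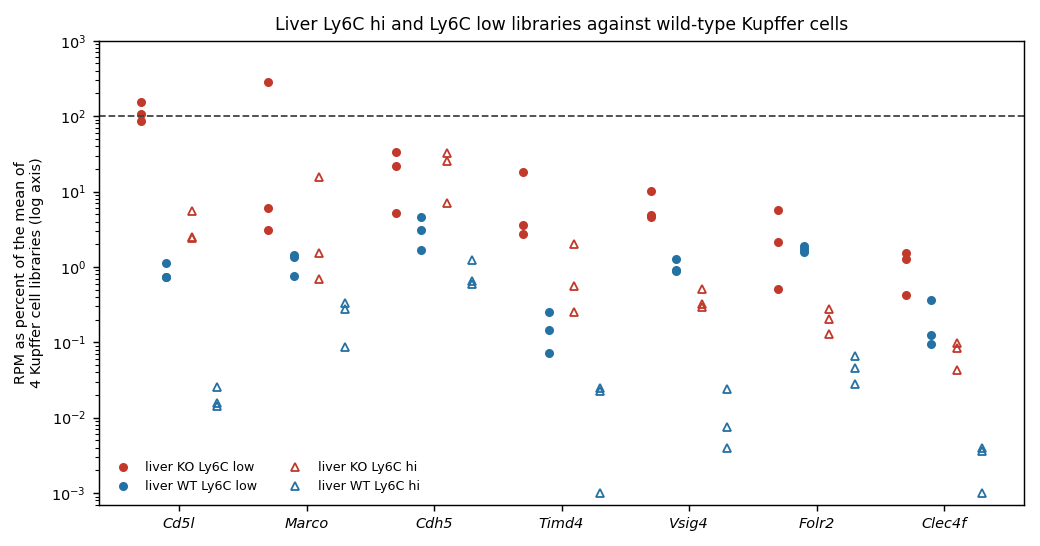
RPM of each gene in the hepatic Ly6C low (filled circles) and Ly6C hi (open triangles) libraries as a percentage of the mean of 4 KC libraries, on a log axis; each point is a library, red is Rnaset2-/-, blue is wild type, and libraries listed at 0 are drawn at the bottom. Rnaset2-/- Ly6C low libraries lay at 86.3 to 152% for Cd5l and at 0.423 to 1.51% for Clec4f.

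In hepatic Ly6C hi macrophages, 4 of the 7 genes rose in Rnaset2-/- mice and none fell, among 15.7% of 10957 genes called higher and 14.9% called lower. Cd5l was at 348, 152 and 159 RPM in Rnaset2-/- libraries, against 0.895 to 1.62 RPM in wild-type libraries (adjusted p = 0.000148, log2 fold change 6.32, standard error 0.388). Cdh5 was at 59.6, 218 and 277 RPM against 5.02, 10.7 and 5.64 RPM (log2 fold change 4.02, standard error 0.499, adjusted p = 0.00152). Vsig4 rose by 2.69 (adjusted p = 0.00128), to 11.3, 7.18 and 6.62 RPM. Clec4f rose by 1.72 (adjusted p = 0.00597), to 3.53, 1.78 and 4.08 RPM from 2, 2 and 0 reads. Clec4f, Vsig4, Marco and Folr2 were under 1 RPM in every wild-type library and passed the filter only through the Rnaset2-/- libraries. Timd4 did not pass the filter, although its 7.29, 2.01 and 0.923 RPM were all above the wild-type libraries. Marco, at 41.8, 4.09 and 1.85 RPM against 0.232 to 0.895 RPM, was not called (log2 fold change 2.24, standard error 0.922, adjusted p = 0.101). Folr2, at 3.07, 1.39 and 2.23 RPM, was not called (log2 fold change 0.92, adjusted p = 0.0562). For each of the 7 genes the lowest Rnaset2-/- RPM exceeded the highest wild-type RPM before scaling. The share of all genes that did so was not counted. Tested on the same genes, Marco passed the threshold without Rnaset2-/- replicate 1 (adjusted p = 0.0411) or replicate 3 (adjusted p = 0.0441), and in count tests on the recovered reads it was called by edgeR (adjusted p = 0.0369) and DESeq2 (adjusted p = 9.65e-05). Folr2 was called by both as well (adjusted p = 0.048 and 0.0355). When the filter was applied again after leaving out an Rnaset2-/- library, only Cd5l and Cdh5 could be tested, and both were called. Rnaset2-/- replicate 1 had the highest value of 5 of the 7 genes in its group and the lowest of Cdh5. Its monocyte markers summed to 1208 RPM, against 3409 and 4176 RPM in replicates 2 and 3. The other KC genes examined below summed to 5162 RPM there, against 2007 and 2208 RPM. Without scaling factors 2661 genes were higher and 905 lower in all, against 1717 and 1634 with them, and Folr2 was called as well (adjusted p = 0.0279). Other lists moved in the same comparison: 6 of 7 T cell markers tested, 5 of 5 B cell markers and 4 of 4 erythroid markers rose, whereas 10 of 13 immediate early genes and 4 of 8 monocyte markers fell. T cell markers summed to 180 to 415 RPM in Rnaset2-/- and 11.5 to 31.1 RPM in wild-type libraries. In every wild-type library 5 of the 6 erythroid and 4 of the 8 T cell markers were at or under the floor. Those of them that were tested passed the filter only through the Rnaset2-/- libraries and had to differ. Cd79b, at a mean of 18.1 RPM, held most of the wild-type B cell sum of 20.1 to 22.8 RPM. The part of these lists in the changes of the 7 genes was not tested.

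KCs remained above these Rnaset2-/- Ly6C hi macrophages in all 6 genes counted, among 17.2% of 12282 genes called higher and 14.9% called lower. The smallest difference was that of Cdh5 (log2 fold change 2.07, adjusted p = 0.00555), followed by Cd5l (4.38), Marco (4.51), Vsig4 (7.47), Folr2 (8.01) and Clec4f (9.56). Each of the 6 calls held when any library was left out. In percent of the KC mean, the Rnaset2-/- Ly6C hi libraries held 6.94 to 32.3% for Cdh5 and 2.39 to 5.49% for Cd5l, but 0.0423 to 0.0972% for Clec4f. Unscaled, 3447 genes were higher in KCs and 904 lower, against 2112 and 1828.

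**Figure D3:**
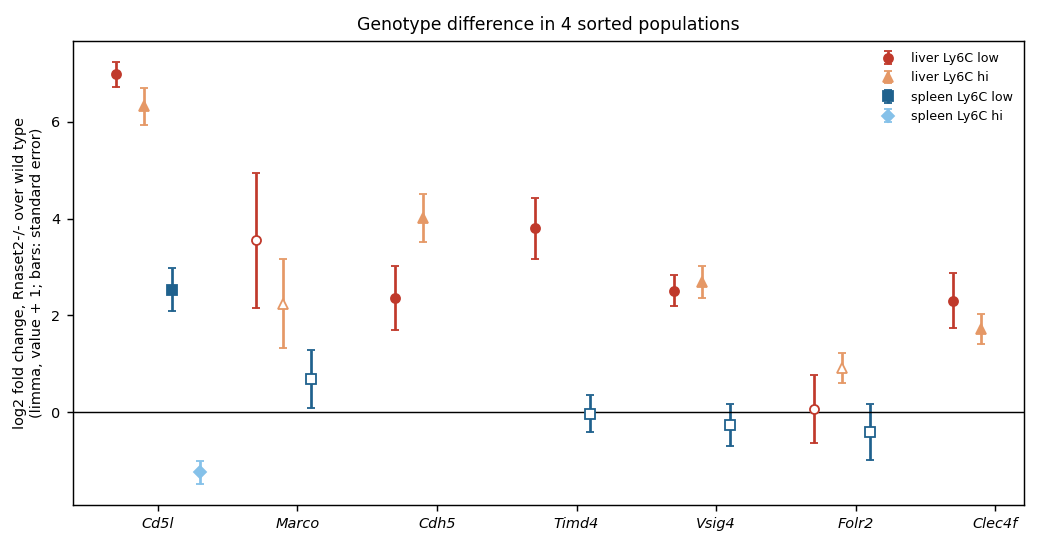
Log2 fold change of Rnaset2-/- over wild type on log2(value + 1) for each gene in 4 sorted populations, with bars of 1 standard error from limma; filled symbols are called genes, open symbols are not, and genes that did not pass the filter are not drawn. Cd5l rose by 6.98 and 6.32 in the liver and by 2.53 in splenic Ly6C low macrophages, and fell by 1.24 in splenic Ly6C hi macrophages.

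Within the liver, the Ly6C low subset carried more of these genes than the Ly6C hi subset in both genotypes. In Rnaset2-/- mice 4 of the 7 genes were higher in Ly6C low macrophages and none was lower, among 8.75% of 10895 genes called higher and 8.26% called lower. They were Cd5l (log2 fold change 5.28, adjusted p = 0.00215), Vsig4 (4.05, adjusted p = 0.0027), Clec4f (3.47, adjusted p = 0.0079) and Folr2 (2.90, adjusted p = 0.0452). The last call was lost without Ly6C hi replicate 2 or 3 or Ly6C low replicate 1 or 3 (adjusted p = 0.139, 0.133, 0.0696 and 0.119), and with no filter (adjusted p = 0.0733). Same-numbered libraries of these 2 groups deviated together, and with the replicate number as a block Timd4 (adjusted p = 0.00115) and Marco (adjusted p = 0.00863) were called as well. The block also raised the count of all genes from 1853 to 3135. Timd4 without the block had an adjusted p of 0.062, and 0.0278 without Ly6C hi replicate 1. Cdh5 stood out from the others, with means of 174 and 185 RPM and a difference of -0.02 in log2 units (standard error 0.781, adjusted p = 0.985). Without scaling factors 667 genes were higher and 1052 lower, against 953 and 900.

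In wild-type mice 6 of the 7 genes were higher in hepatic Ly6C low than in Ly6C hi macrophages, among 5.24% of 11688 genes called higher and 4.84% called lower, and Timd4 did not pass the filter. Cd5l rose by 4.58 (adjusted p = 1.22e-05), Vsig4 by 4.14 (adjusted p = 3.53e-05), Folr2 by 3.67 (adjusted p = 3.39e-05) and Clec4f by 2.78 (adjusted p = 0.00411). Marco, at 2.07 to 3.92 against 0.232 to 0.895 RPM, rose by 1.31 (adjusted p = 0.043), a call lost without any single Ly6C hi library (adjusted p = 0.0734 to 0.111) or, on the same genes, without Ly6C low replicate 2 or 3 (adjusted p = 0.114 and 0.198). It was also lost with a pseudocount of 0.1, with no filter, by edgeR and in a fit of all 29 libraries (adjusted p = 0.0612, 0.0654, 0.066 and 0.466). Cdh5 rose by 1.63 (adjusted p = 0.0204) and was lost without Ly6C hi replicate 1 or 3 (adjusted p = 0.076 and 0.0626) or, on the same genes, Ly6C low replicate 3 (adjusted p = 0.0849), and with no filter (adjusted p = 0.0628). Clec4f, Vsig4, Marco and Folr2 passed the filter only through the Ly6C low libraries. In each genotype all libraries of the low subset were above the high subset in Cd5l, Vsig4, Clec4f, Folr2 and Timd4. Unscaled, 789 genes were higher and 418 lower, against 612 and 566.

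The spleen served as the organ without KCs. Clec4f had 0 reads in 12 of the 13 splenic libraries and 1 read in Rnaset2-/- Ly6C low replicate 1. With the floor of 3 reads for each library, the KC mean was at least 20100-fold higher than wild-type Ly6C low macrophages of the spleen. Timd4, Vsig4, Marco and Folr2 reached at most 3.84, 2.73, 13.2 and 3.49 RPM in any splenic library, and Cdh5 at most 1.04 RPM. Replicate 1 of the Rnaset2-/- Ly6C low group, which held 695 RPM of erythroid markers against 32.9 to 84.8 RPM in the other 3 and 38700 RPM of 8 neutrophil markers against 3326 to 22220 RPM, had the highest value of 6 of the 7 genes in that group. The part of these markers in its values was not tested.

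Cd5l was the only one of the 7 genes called between genotypes in the spleen, where no other gene was tested in Ly6C hi macrophages. Its changes in the Ly6C subsets had opposite signs. In Ly6C low macrophages it was at 431, 173, 87.4 and 138 RPM in the Rnaset2-/- libraries and at 41.5, 24.7 and 24.4 RPM in the wild-type libraries. It rose by 2.53 (standard error 0.443, adjusted p = 0.0139), among 4.05% of 10295 genes called higher and 4.30% called lower, and was lost without wild-type replicate 2 or 3 (adjusted p = 0.0748 and 0.0785). Of the 5 genes tested here, Timd4, Vsig4, Marco and Folr2 overlapped between genotypes and were not called (adjusted p = 0.476 to 0.968). In Ly6C hi macrophages Cd5l was at 3.87, 8.68 and 6.03 RPM against 15.6, 15.96 and 18.4 RPM. It fell by 1.24 (standard error 0.235, adjusted p = 0.00247), among 9.77% of 10398 genes called higher and 12.5% called lower, and was the only gene of the 7 that passed the filter. The call was lost in a fit of all 29 libraries (adjusted p = 0.0803). Timd4, Vsig4, Marco and Cdh5, not tested here, were also lower in every Rnaset2-/- library than in every wild-type library. Their means were 0.0947, 0.0313, 0.175 and 0.144 RPM against 0.764, 1.25, 0.788 and 0.719 RPM. The share of all genes that did so was not counted. In this comparison 7 of 7 T cell markers tested fell, their sum being 13.03 to 30.6 RPM against 191 to 200.5 RPM, 9 of 13 immediate early genes fell and 5 of 8 neutrophil markers rose. Their part in the value of Cd5l was not tested. Whether the genotype difference of Cd5l differed between the splenic subsets was not tested. Without scaling factors 733 genes were higher and 1620 lower in splenic Ly6C hi macrophages, against 1016 and 1295.

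The organs were compared within each genotype. In Rnaset2-/- Ly6C low macrophages Xist differed by -7.24 on the log2 scale, liver over spleen, so organ and sex cannot be told apart there. In Rnaset2-/- Ly6C low macrophages 6 of the 7 genes were higher in the liver, among 18.5% of 10559 genes called higher and 17.6% called lower. The differences were 6.69 for Cdh5, 6.17 for Vsig4, 5.38 for Cd5l, 5.32 for Clec4f, 3.59 for Folr2 and 2.98 for Timd4 on the log2 scale (adjusted p = 6.82e-05 to 0.00869). Marco was not called (3.27, standard error 1.39, adjusted p = 0.0938), but it was without liver replicate 2 (adjusted p = 0.0467). In wild-type Ly6C low macrophages 5 genes were higher in the liver, among 18.8% of 10611 genes called higher and 15.3% called lower. In both genotypes Clec4f and Cdh5 passed the filter only through the hepatic libraries. In wild-type mice Timd4 passed it only through the splenic libraries. Cdh5 rose by 4.54, Vsig4 by 3.36, Folr2 by 3.08 and Clec4f by 2.996. Cd5l rose by only 0.90 (adjusted p = 0.0128), and was lost without splenic replicate 3 or hepatic replicate 3 (adjusted p = 0.0621 and 0.0586) and in a fit of all 29 libraries (adjusted p = 0.132). Timd4 fell by 0.88 (adjusted p = 0.0296), at 0.261 to 0.911 RPM in the liver and 1.37 to 3.01 RPM in the spleen. This call was lost without hepatic replicate 2 or 3 (adjusted p = 0.0813 and 0.0759) and, on the same genes, without splenic replicate 1 or 3 (adjusted p = 0.122 and 0.0559), and with no filter or in a fit of all 29 libraries (adjusted p = 0.0546 and 0.21).

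The difference of the genotype effects between liver and spleen was tested as an interaction. It cannot be told apart from sex, which went with genotype in the liver. The interaction of Xist was -6.89 in Ly6C low and -8.37 in Ly6C hi macrophages. In Ly6C low macrophages 4 genes had a more positive effect in the liver, among 12.1% of 11308 genes called higher and 14.7% called lower. They were Cd5l (4.46, adjusted p = 0.000177), Timd4 (3.84, adjusted p = 0.00325), Vsig4 (2.78, adjusted p = 0.0038) and Clec4f (2.30, adjusted p = 0.0151). Cdh5 missed the threshold (2.12, adjusted p = 0.0512) and passed it without wild-type hepatic replicate 3 (adjusted p = 0.0466) or Rnaset2-/- hepatic replicate 2 (adjusted p = 0.00107), and also without scaling factors, with TMM factors and in a fit of all 29 libraries (adjusted p = 0.0408, 0.0448 and 0.0188). In Ly6C hi macrophages 6 genes had a more positive effect in the liver, among 17.6% of 11398 genes called higher and 16.0% called lower. Of these genes, Clec4f and Folr2 passed the filter only through the hepatic Rnaset2-/- libraries. In the spleen Cd5l fell (-1.24), and Timd4, Vsig4 and Cdh5, not tested there, were lower in every Rnaset2-/- library. The largest interaction was that of Cd5l (7.61, adjusted p = 5.64e-07), followed by Cdh5 (4.60, adjusted p = 0.00013) and Vsig4 (3.80, adjusted p = 2.04e-05). Timd4 (2.36, adjusted p = 0.0105), Clec4f (1.79, adjusted p = 0.00181) and Folr2 (1.14, adjusted p = 0.0367) completed the list, the last of which was lost when any 1 of 6 libraries was left out (adjusted p = 0.0596 to 0.0995). Folr2 was also lost with a pseudocount of 0.1, by edgeR, by DESeq2 and in a fit of all 29 libraries (adjusted p = 0.0916, 0.12, 0.0856 and 0.315). Marco (2.83, adjusted p = 0.0544) passed without Rnaset2-/- hepatic replicate 1, 2 or 3 (adjusted p = 0.00513, 0.0455 and 0.0108), and also without scaling factors, with a pseudocount of 0.1, by edgeR and by DESeq2 (adjusted p = 0.0349, 0.0157, 0.0106 and 1.71e-05). For Clec4f, with at most 1 read in any splenic library, both calls were lost in count tests on the recovered reads (edgeR adjusted p = 0.831 and 1, DESeq2 adjusted p = 0.497 and 0.0547). Unscaled, 3148 genes had a more positive and 841 a more negative effect in the liver in the Ly6C hi comparison, against 2005 and 1818.

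Cdh5 is also the defining cadherin of endothelial cells, so it was set beside 18 markers of sinusoidal endothelium. In Rnaset2-/- against wild-type Ly6C hi macrophages of the liver all 18 markers rose, where 15.7% of all genes rose. Their median log2 fold change was 3.64, against 0.01 over all genes. Cldn5 and Mmrn2, under 1 RPM in every wild-type library, passed the filter only through the Rnaset2-/- libraries and had to differ. In the Ly6C low comparison 3 of 18 rose (median 0.55), where 20.2% of all genes rose. KCs were higher in 16 of the 18 than Rnaset2-/- Ly6C low macrophages and lower in 1 (median 2.82), beside 26.3% and 19.4% of all genes. Clec4g, a lectin of sinusoidal endothelium, led the list in KCs at a mean of 1480 RPM. Pecam1, which macrophages also express, led it in the hepatic and splenic Rnaset2-/- Ly6C low groups at means of 1950 and 1883 RPM. Pecam1 and Vwf were therefore left out of a second sum of 16 markers, a choice made after their values were seen. That sum was 173, 344 and 1641 RPM in the 3 hepatic Rnaset2-/- Ly6C low libraries, where Cdh5 was at 287, 44.4 and 189 RPM. The library with the most Cdh5 thus held the least of the markers. In KCs the sum was 3622, 5333, 8907 and 3788 RPM, and replicate 3, with the highest sum, had the lowest Cdh5. In hepatic Rnaset2-/- Ly6C hi macrophages the sum was 430, 2069 and 3117 RPM and moved with Cdh5, which was at 13.9, 10.5 and 8.89% of it. In wild-type hepatic libraries Cdh5 was at 5.08 to 9.66% of the sum, against 8.23 to 24.0% in KCs and 11.5 to 166% in Rnaset2-/- Ly6C low macrophages. The part of endothelial RNA in the values of Cdh5 was not tested.

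**Figure D4:**
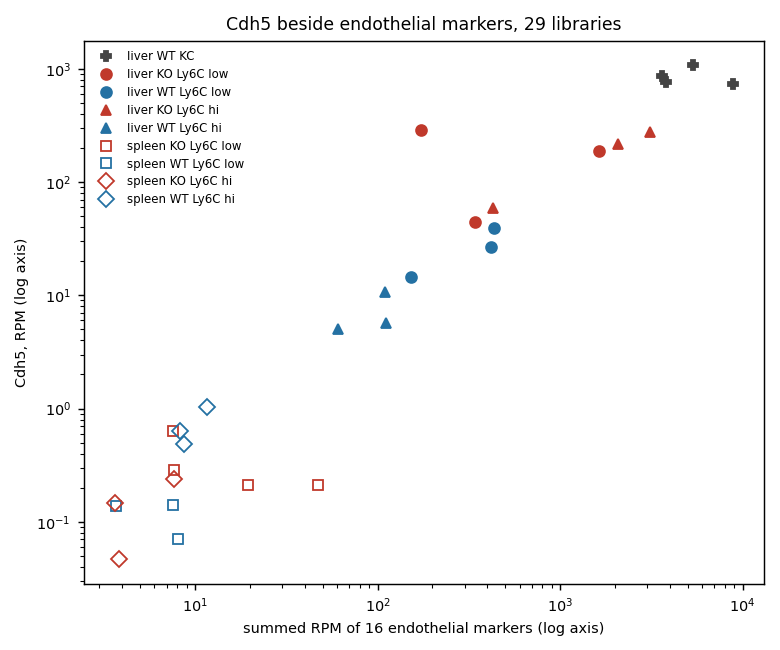
RPM of Cdh5 against the summed RPM of 16 endothelial markers in 29 libraries, both on log axes; each point is a library, filled for liver and open for spleen. One hepatic Rnaset2-/- Ly6C low library lies apart, with 287 RPM of Cdh5 beside 173 RPM of the markers, whereas the hepatic Ly6C hi libraries of that genotype run from 430 RPM of markers with 59.6 RPM of Cdh5 to 3117 RPM with 277 RPM.

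Another 29 genes typical of KCs were examined for comparison. In Rnaset2-/- Ly6C low macrophages of the liver 18 of the 28 tested rose over wild type and 4 fell (median log2 fold change 2.60), beside 20.2% and 22.5% of all genes and an all-gene median of 0.01. C6, a complement component, rose by 5.61 (adjusted p = 0.000483), and Pcolce2 and Kcna2 rose by 5.22 and 5.203. Pcolce2 and Kcna2, with wild-type means of only 0.118 and 0.403 RPM, passed the filter only through the Rnaset2-/- libraries and had to differ. How many others of the 18 did so was not counted. C6 reached at most 1.43 RPM in wild-type libraries and varied widely in Rnaset2-/- libraries, from 37.7 to 293.7 RPM. Hpgd, which degrades prostaglandins, fell by 2.26, Cd163, the haptoglobin-hemoglobin receptor, by 1.78, and Id1 by 1.65. In the Ly6C hi comparison 8 of 23 rose and 4 fell (median 0.55), beside 15.7% and 14.9% of all genes, led by Cd38 (4.62) and Slc40a1, the iron exporter (3.15), with Id1 among those that fell (-3.09). In the spleen 5 of 27 rose and 2 fell in the Ly6C low subset, led by Spic (2.49), beside 4.05% and 4.30% of all genes. In the splenic Ly6C hi subset 1 of 23 rose and 13 fell, with Fcna lowest (-3.03), beside 9.77% and 12.5% of all genes.

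Against the same 29 genes, KCs were higher than Rnaset2-/- Ly6C low macrophages in 8 of 28 and lower in 4 (median 0.29), beside 26.3% and 19.4% of all genes, against 23 higher and 1 lower when set against wild-type Ly6C low macrophages (median 3.32), beside 26.0% and 24.0%. Cd163 was at 458 ± 197 RPM (SD, n = 4) in KCs and at 1.67 ± 1.72 RPM (SD, n = 3) in Rnaset2-/- Ly6C low macrophages (log2 fold change 7.11, adjusted p = 2.9e-05). Nr1h3, the gene of the nuclear receptor LXR alpha, was at 247 ± 63.2 RPM (SD, n = 4) in KCs and at 796 ± 218 RPM (SD, n = 3) in these cells, a fall of 2.22 on the log2 scale in KCs (adjusted p = 0.000249). Spic and C1qb were likewise lower in KCs, at log2 fold changes of -1.93 and -1.22. Means in the Rnaset2-/- group spanned 0.364% (Cd163) to 322% (Nr1h3) of the KC mean. Of 14 other scavenger receptor genes, 10 were tested between genotypes in hepatic Ly6C low macrophages, of which 3 rose and 2 fell (median 0.48), shares near the 20.2% and 22.5% of all genes. Scarb1 rose by 1.51 and Cd36 fell by 4.02 on the log2 scale (adjusted p = 0.000618 and 4.05e-05).

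**Figure D5:**
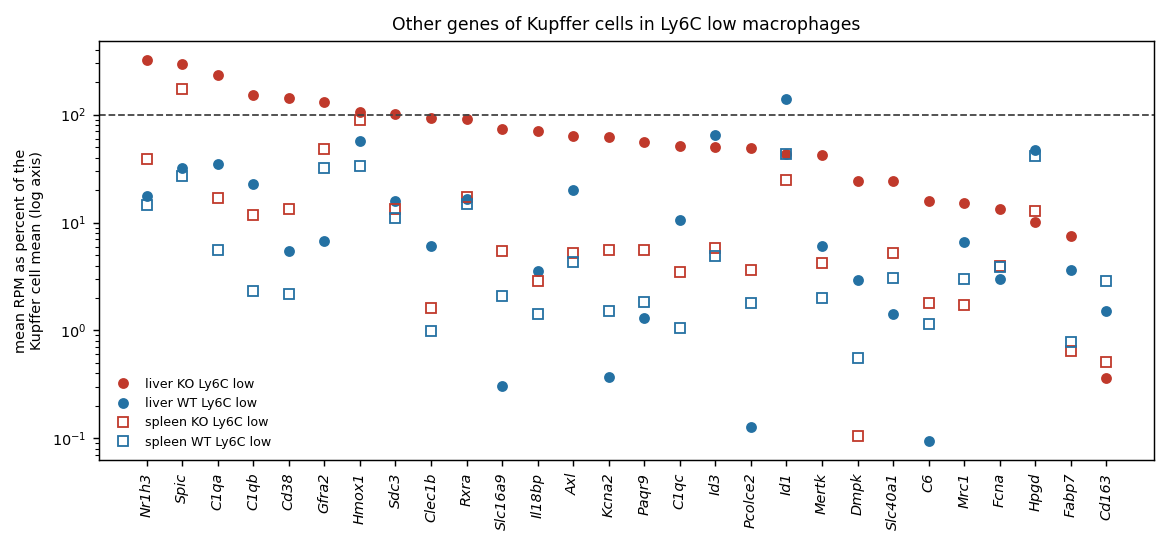
Mean RPM of 28 of the 29 other KC genes in 4 Ly6C low groups as a percentage of the mean of 4 KC libraries, on a log axis; each point is a group mean, filled for liver and open for spleen, red for Rnaset2-/- and blue for wild type, and the dashed line is the KC mean. Hepatic Rnaset2-/- means ran from 322% (Nr1h3) to 0.364% (Cd163).

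The genes whose group means followed each of the 7 most closely were listed by Pearson correlation of mean log2(RPM + 1) over the 9 groups, among 9670 genes with a group mean of at least 10 RPM. The closest to Clec4f was Thrb (r = 0.99), to Timd4 Fam167a (0.996), to Vsig4 Dmpk (0.99) and to Marco Itsn1 (0.99). The closest to Cd5l was Sh3d19 (0.98) and to Cdh5 Adgrf5 (0.99), an endothelial receptor. Next came Tmem37 and Slc22a17 for Clec4f, Ksr2 and Cela1 for Timd4, and Bckdhb and 2610203C22Rik for Vsig4. Scamp5 and Sema6d followed Marco, Zfp810 and 2610203C22Rik were among those listed for Folr2, Cadm1 and Zbtb4 followed Cd5l, and F8 and Dchs1 followed Cdh5. Among the 7 genes themselves, r ran from 0.74 for Cd5l with Cdh5 to 0.98 for Clec4f with Folr2 (n = 9). These are descriptions over 9 points that share libraries and sorts, and the choice of measure mattered: 10 of the 21 places in these lists were filled by the same genes with a correlation over 29 libraries and 5 with Spearman's rho.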

How the data were processed

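RNA from sorted macrophages was made into libraries with an Ion AmpliSeq Transcriptome kit, a panel of targeted amplicons, and aligned to mm10. The authors counted reads with the AmpliSeqRNA plug-in and deposited RPM, reads scaled to a fixed library total, for 23930 genes, with a column for each library. Whole reads were recovered from the RPM steps (100% of values within 0.1 read; edgeR on them called 885 genes between genotypes in splenic Ly6C low macrophages to 6539 in KCs against wild-type Ly6C hi macrophages), and libraries held 11175843 to 21167602 reads. Every sample column was used. Rnaset2a and Rnaset2b are not analysed here. The 7 genes and all gene lists were chosen with earlier results of these data known.

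Groups came from the labels. Comparisons used limma 3.58.1 (R 4.3.3) on log2(RPM divided by a relative log expression factor, + 1), for genes reaching 1 RPM in 3 or more of the compared libraries, over the compared groups only; calls needed >1.5-fold and an adjusted p below 0.05. The named genes were the 7, the 3 genes most like each of them, and the 3 largest called rises and falls among the other KC genes; 2 genes that this rule names are not reported here. Alternatives were no scaling, TMM factors, a pseudocount of 0.1, no filter, a replicate block, edgeR 4.0.16 and DESeq2 1.42.0 on recovered reads, 1 fit of 29 libraries, and leaving out each library. Scripts were tested on simulated data. Replicate numbers were not used in the main fits, only in the replicate block, which was run in every comparison. Every same-numbered pair correlated above 0.1 in its deviations across genes for Rnaset2-/- Ly6C low and Ly6C hi macrophages of the liver (r = 0.53, 0.23 and 0.46). This narrowly failed for KCs against Rnaset2-/- Ly6C hi (0.107, 0.0992 and 0.224) and against Rnaset2-/- Ly6C low macrophages of the liver (0.114, 0.094 and 0.344). KCs were wild type, so pairs with Rnaset2-/- cells cannot share an animal. The labels do not state a pairing.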

Additional observations from a re-analysis of the deposited data

Results flagged for a closer look

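Among 14 sets of a gene and a group of 4 libraries, 4 held a library far from the other 3. The nominal rate of about 1 in 20 cannot be applied, because the sets share libraries and some hold only a few reads. Timd4 and Cd5l were lowest in KC replicate 3, at 166 and 2098 RPM. That library was the lowest of its group in all 7 genes. In splenic Rnaset2-/- Ly6C low macrophages the highest Clec4f value was 0.071 RPM, a single read. The other 3 libraries held 0 reads, so that any read would stand apart. The highest Cdh5 value there was 0.634 RPM, 9 reads against 3 or 4.

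Sex cannot be told apart from genotype in the liver, and so not from the differences between organs given here. The genotype difference was more positive in liver than in spleen, by the interaction test in limma, for Clec4f (2.30), Timd4 (3.84), Vsig4 (2.78) and Cd5l (4.46) in Ly6C low macrophages. The call of Clec4f, which had 0 reads in 12 of the 13 splenic libraries, was lost by edgeR (adjusted p = 0.831) and DESeq2 (adjusted p = 0.497). In Ly6C hi macrophages the genotype difference was more positive in liver for Clec4f (1.79), Timd4 (2.36), Vsig4 (3.80), Folr2 (1.14), Cd5l (7.61) and Cdh5 (4.60). Here Clec4f was lost by edgeR (adjusted p = 1) and DESeq2 (adjusted p = 0.0547), and Folr2 with a pseudocount of 0.1 (adjusted p = 0.0916), by edgeR (adjusted p = 0.12), by DESeq2 (adjusted p = 0.0856) and in a fit of all 29 libraries (adjusted p = 0.315). In the spleen Cd5l differed between genotypes by 2.53 in Ly6C low and by -1.24 in Ly6C hi macrophages, and every library followed its group, but the difference between these subsets was not tested.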

How the results depend on the processing

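Over settings other than leaving out a library, 627 of the alternative values of single genes stayed on their side of the threshold, 22 passed it and 18 lost it, and no called gene changed sign. Uncalled differences changed sign in some settings for Cdh5, Folr2, Marco, Timd4 and Vsig4. In splenic Ly6C hi macrophages, 1 of the 7 genes was called, against 3 with no filter and 0 in 1 fit of 29 libraries. The cause was not tested.

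When each library was left out, the number called ran from 2 to 4 between genotypes in hepatic Ly6C hi and 3 to 5 in hepatic Ly6C low macrophages, and was 1 and 0 to 1 in the splenic subsets. For KCs it was 6 against each wild-type subset and Rnaset2-/- Ly6C hi, and 4 to 5 against Rnaset2-/- Ly6C low macrophages. Between hepatic subsets it ran from 3 to 5 in Rnaset2-/- and 1 to 5 in wild-type mice, between organs from 4 to 6 and 2 to 5, and for the interactions from 4 to 5 and 4 to 6. Fewer genes then passed the filter in some of these comparisons. On the genes of the full comparison, a choice made after seeing the data, the number called ran from 4 to 5 and 3 to 6 between genotypes in hepatic Ly6C hi and Ly6C low macrophages, 4 to 6 between wild-type subsets and between wild-type organs, 6 to 7 between Rnaset2-/- organs and 5 to 7 for the Ly6C hi interaction.

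With the replicate block, Marco was also called between organs in Rnaset2-/- Ly6C low macrophages (adjusted p = 0.0274, limma), where the samples share only a number; apart from the calls given in the report, the block changed no other call. Without scaling factors the median log2 fold change over all genes was at most 0.671 (KCs against wild-type Ly6C hi), where it was 0.0504 with them. Counts of all genes called moved most in splenic Ly6C low macrophages (860; 515 with no filter, 1600 with DESeq2, 1358 in 1 fit, 145 to 1121 leaving out a library), in splenic Ly6C hi (2311; 1277 in 1 fit), in hepatic Rnaset2-/- subsets (1853; 3640 in 1 fit, 445 to 2324), in hepatic Ly6C hi (3351; 1694 to 3880), in hepatic wild-type subsets (1178; 546 to 964) and in KCs against Rnaset2-/- Ly6C hi (3940; 2502 at the lowest).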
